A study of Mus musculus with 15 samples.

Results

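The FGF, BMP and GDF ligand genes were taken as the protein-coding genes whose symbol is Fgf, Bmp or Gdf followed by digits only, with Bmp8a and Bmp8b added and Fgf21 and Gdf15 left out. The GRCm39 annotation held 41 such genes among 21770 protein-coding genes, namely 21 FGF, 11 BMP and 9 GDF genes. They were followed in H3K4me3 ChIP–seq of mBA cells, a mouse brown adipocyte model. There were 4 ChIP samples of WT cells, 4 of WT + 2HG cells and 4 of CLPP-KO cells, with 3 input samples in all, 1 per condition. WT + 2HG cells are WT cells given octyl d-2HG, a cell-permeable form of d-2-hydroxyglutarate dissolved in DMSO, at 500 µM for 72 h. CLPP-KO cells lack the mitochondrial matrix protease CLPP. The labels call the WT and CLPP-KO cells untreated and name no group given DMSO alone, so d-2HG and its solvent cannot be told apart. The labels call the cells primary, whereas the methods of the study describe preadipocytes immortalized with SV40 large T antigen, made from pooled animals of both sexes and then differentiated. According to the labels the knockout cells also received uridine, so genotype and uridine cannot be told apart.

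H3K4me3, trimethylation of histone H3 at lysine 4, lies over the start sites of genes that are transcribed or poised for transcription, and most mammalian promoters that carry it are rich in CpG dinucleotides. FGF ligands signal through receptor tyrosine kinases, with the exception of an intracellular branch that is not secreted, and BMP and GDF ligands belong to the TGF-β superfamily and signal through pairs of serine/threonine kinase receptors to SMAD proteins. In adipose tissue, Bmp4 is known for commitment of precursors to the adipocyte lineage, Bmp7 for brown adipocyte differentiation, Bmp8b for thermogenesis and Fgf10 for preadipocyte growth.

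The authors called peaks on the 4 samples of a condition together, which left a single list per condition, with 12342 peaks in WT, 14059 in 2HG-treated cells and 15118 in the knockout. No spread between replicates can therefore be given, none of the differences below has a test, and the lists hold no reads from which depth could be read. Area under the curve, the authors' measure of peak size, was not scaled between lists (median 2970, 5027 and 5744), so each peak is given by its percentile, the share of peaks in the same list with an area no larger. Of 8 adipocyte markers, Cebpa, Cebpb and Pparg had a promoter peak in all 3 lists, Lpl and Plin1 in CLPP-KO and WT + 2HG only, and Adipoq, Cd36 and Fabp4 in none. Of 8 brown adipocyte markers, 3 were marked throughout, Cidea in CLPP-KO and WT + 2HG only and Ebf2 in CLPP-KO only, while Ucp1, Dio2 and Ppargc1a were marked in no list. Of 5 preadipocyte and fibroblast markers 4 were marked in all lists, of 4 macrophage and leukocyte markers none was, and of 4 endothelial markers 1 was. Of 5 muscle markers, 0 were marked in WT, 1 in 2HG-treated cells and 3 in the knockout, and of 4 neural markers 1, 2 and 3, respectively. Whether these markers have a part in the results below was not tested.

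A ligand gene was called marked when a peak overlapped the sequence within 2000 bp of any of its annotated transcript starts. In WT, 20 of the 41 genes were marked (48.8%, against 51.3% of all protein-coding genes). WT + 2HG had 25 marked genes (61.0%, against 56.4%) and CLPP-KO had 27 (65.9%, against 58.2%). The WT share thus lay slightly below that of coding genes and the other 2 shares above it. The same 20 genes were marked in all 3 lists (48.8%, against 50.6%). Another 5, Fgf5, Fgf12, Fgf15, Bmp3 and Gdf10, were marked in CLPP-KO and WT + 2HG and not in WT (12.2%, against 4.75% of coding genes), and 2, Fgf3 and Fgf22, in CLPP-KO only (4.88%, against 2.51%). No ligand gene was marked in WT + 2HG alone (0.891% of coding genes), in WT alone (0.179%), in WT with CLPP-KO alone (0.289%) or in WT with WT + 2HG alone (0.165%). None of the 20 genes marked in WT lacked a peak in either of the other lists, where 1.24% of the coding genes marked in WT did. The remaining 14 were marked in no list (34.1%, against 40.6%). Among the 21 genes without a WT peak, 7 had one in CLPP-KO (33.3%, against 14.9%) and 5 had one in WT + 2HG (23.8%, against 11.6%). Those with a peak in either list were again the 7 (16.7% of coding genes). As a single WT list serves for both counts, the 5 genes in common are not separate observations.

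**Figure D1:**
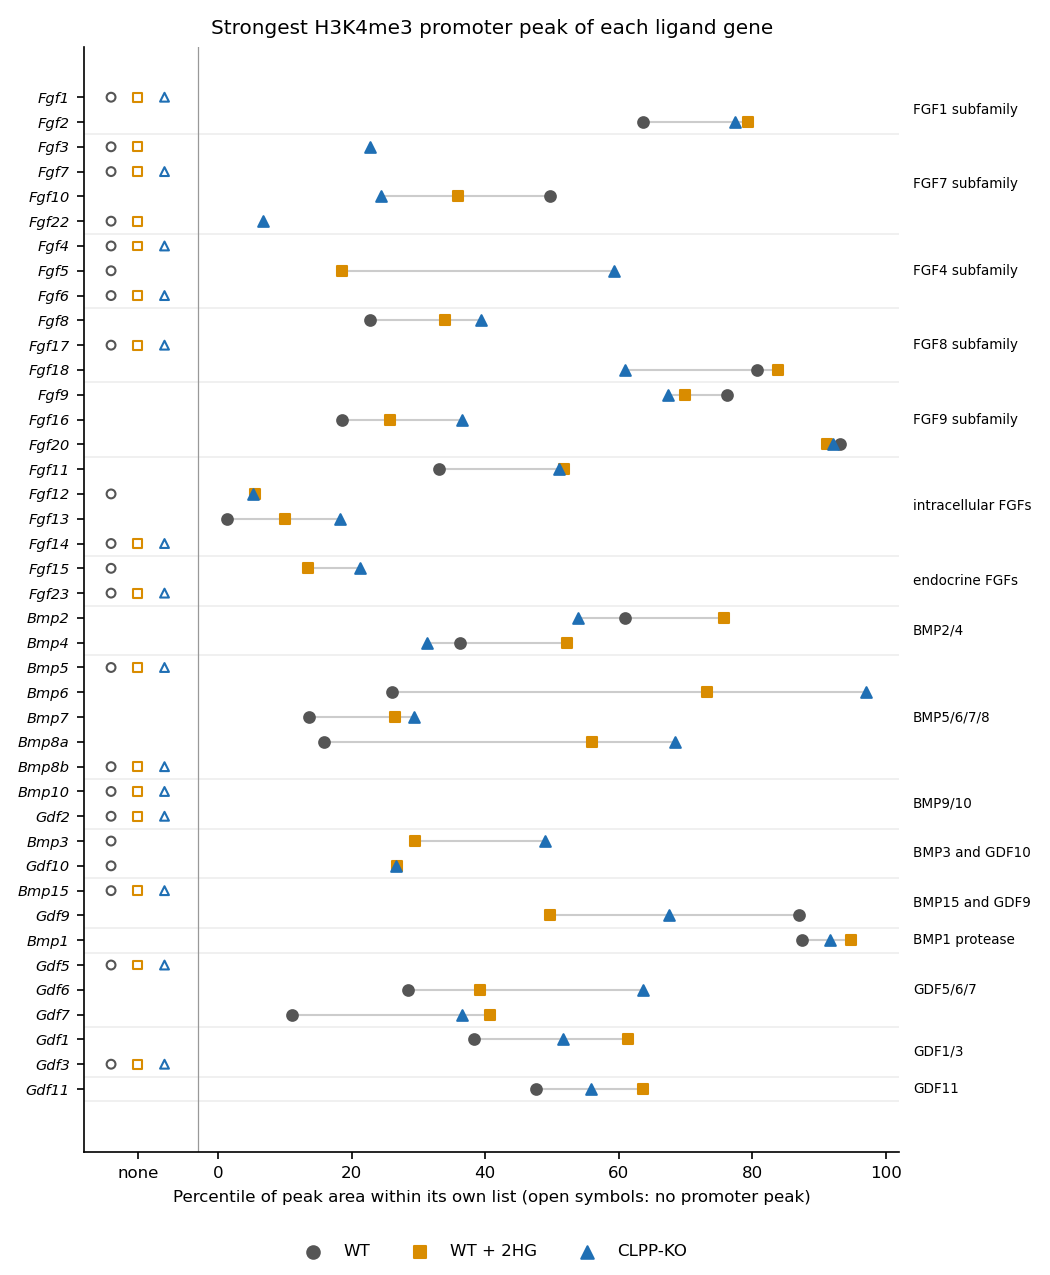
The percentile of the strongest promoter peak of each of the 41 ligand genes within its own list (x axis), with genes in rows grouped by subfamily. Circles, squares and triangles stand for WT, WT + 2HG and CLPP-KO, each pooled over 4 samples, and open symbols at the left stand for no peak. The 7 genes with an open circle and a filled triangle are Fgf3, Fgf5, Fgf12, Fgf15, Fgf22, Bmp3 and Gdf10.

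The promoter sequences of the 5 genes marked in CLPP-KO and WT + 2HG and not in WT are printed first, since their marking differs between the lists. Each is 250 bases before and 50 bases from the canonical start on, in GRCm39, read 5′ to 3′ on the strand of the gene, with CpG dinucleotides in capitals. The windows are, in order, chr5:98401530-98401829 (plus strand), chr5:99002018-99002317 (plus), chr14:33645023-33645322 (plus), chr7:144450018-144450317 (plus) and chr16:28264980-28265279 (minus).
Fgf5: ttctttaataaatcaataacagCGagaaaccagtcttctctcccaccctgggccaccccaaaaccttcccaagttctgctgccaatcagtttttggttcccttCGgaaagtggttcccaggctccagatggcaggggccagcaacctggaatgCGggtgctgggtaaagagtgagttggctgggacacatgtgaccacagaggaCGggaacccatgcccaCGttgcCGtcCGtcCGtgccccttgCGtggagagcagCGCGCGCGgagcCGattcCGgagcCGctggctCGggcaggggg
Bmp3: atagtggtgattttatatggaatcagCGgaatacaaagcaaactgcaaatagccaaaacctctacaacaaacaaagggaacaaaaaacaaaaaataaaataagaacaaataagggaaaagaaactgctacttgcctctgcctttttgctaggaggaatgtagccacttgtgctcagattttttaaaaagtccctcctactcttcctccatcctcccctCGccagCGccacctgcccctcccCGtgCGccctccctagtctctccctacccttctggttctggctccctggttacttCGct
Gdf10: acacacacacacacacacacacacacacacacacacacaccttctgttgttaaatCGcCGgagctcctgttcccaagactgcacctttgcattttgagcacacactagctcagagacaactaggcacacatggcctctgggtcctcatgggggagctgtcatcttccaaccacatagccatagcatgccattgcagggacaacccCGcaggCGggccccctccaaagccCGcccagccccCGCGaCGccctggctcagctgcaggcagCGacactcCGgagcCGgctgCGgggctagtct
Fgf15: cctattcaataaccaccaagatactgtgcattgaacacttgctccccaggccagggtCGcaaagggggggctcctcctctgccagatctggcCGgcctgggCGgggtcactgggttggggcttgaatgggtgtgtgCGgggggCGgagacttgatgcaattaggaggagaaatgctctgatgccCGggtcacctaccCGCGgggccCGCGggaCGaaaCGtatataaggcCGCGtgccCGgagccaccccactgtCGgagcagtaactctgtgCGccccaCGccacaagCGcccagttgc
Fgf12: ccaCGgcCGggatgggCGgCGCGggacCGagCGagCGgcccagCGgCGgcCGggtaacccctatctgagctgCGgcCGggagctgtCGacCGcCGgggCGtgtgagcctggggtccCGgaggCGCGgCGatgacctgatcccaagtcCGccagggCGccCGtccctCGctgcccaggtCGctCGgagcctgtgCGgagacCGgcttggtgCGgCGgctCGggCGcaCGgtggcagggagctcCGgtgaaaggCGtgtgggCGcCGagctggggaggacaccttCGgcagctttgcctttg
The windows held 17 CpG in Fgf5, 6 in Bmp3, 12 in Gdf10, 19 in Fgf15 and 39 in Fgf12. Peaks of CLPP-KO and WT + 2HG reached into the windows of Fgf5, Gdf10 and Fgf15. In Fgf12 only the CLPP-KO peak did so, and in Bmp3 neither did, because both of its peaks began downstream of the start.

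Fgf5, a secreted FGF known as the signal that ends the growth phase of hair, had the largest CLPP-KO peak of the 7 genes without a WT peak. Its WT + 2HG peak ran from 98401593 to 98402376 on chromosome 5, with an area of 1073 (percentile 18.5) and a summit −log10 p of 6.00. The CLPP-KO peak ran from 98401582 to 98402563, with an area of 7313 (percentile 59.3) and a summit −log10 p of 13.2. Both summits lay at the same base, 56 bp from an Fgf5 start, so the peaks differed in size and hardly in place. Bmp3, which opposes osteogenic BMP signals, lies 549948 bp from Fgf5 on the same chromosome, the next ligand gene along it. Its WT + 2HG peak covered 99002725 to 99003237 (area 2217, percentile 29.5, summit −log10 p 9.68) and its CLPP-KO peak 99002577 to 99003496 (area 5540, percentile 48.9, summit −log10 p 12.4). These summits were 628 and 440 bp from the Bmp3 start and nearer, at 508 and 320 bp, to a start of the lncRNA Gm34563. The starts of Bmp3 and of this lncRNA are 120 bp apart, and the peaks cannot be assigned to either of the transcripts.

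Gdf10, the closest relative of Bmp3 and also called BMP3b, had peaks of nearly equal rank in both lists. The WT + 2HG peak ran from 33645130 to 33646038 on chromosome 14 (area 1915, percentile 26.7, summit −log10 p 6.99) and the CLPP-KO peak from 33645239 to 33646053 (area 1867, percentile 26.6, summit −log10 p 7.07). The CLPP-KO summit was 217 bp from the Gdf10 start, and the WT + 2HG summit was 509 bp from it and 86 bp from a start of the lncRNA Gm30031. By the 2000 bp window both members of the BMP3 and GDF10 subgroup were without a peak in WT and had one in the other 2 lists. When each peak was assigned to its nearest start alone, neither kept this pattern. Bmp3 was then marked in no list and Gdf10 in CLPP-KO only. Fgf15, the hormone by which the intestine limits bile acid synthesis in the liver, had 2 peaks in each list. The peaks at its start, from 144450109 to 144450530 on chromosome 7 in 2HG-treated cells and from 144450016 to 144450612 in the knockout, had areas of 668.7 and 1257 (percentiles 13.5 and 21.3) and summit −log10 p of 5.78 and 5.65, with summits 50 and 13 bp from the start. The upstream peaks, from 144449178 to 144449723 and from 144449351 to 144449734, had areas of 457.0 and 958.8 (percentiles 9.68 and 17.9) and summit −log10 p of 3.75 and 5.88. Their summits were 726 and 754 bp from the Fgf15 start and nearer, at 158 and 186 bp, to a start of the lncRNA Gm26793.

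Fgf12, an intracellular FGF that binds voltage-gated sodium channels, was marked at different starts in the 2 lists. The CLPP-KO peak, from 28264675 to 28265029 on chromosome 16 (area 301.0, percentile 5.25, summit −log10 p 3.40), lay at the canonical start, with its summit 22 bp from a start. The WT + 2HG peak, from 28383471 to 28383756 (area 309.4, percentile 5.56, summit −log10 p 3.41), lay over another start, with its summit 120 bp from it, far upstream of the canonical one. No promoter base of Fgf12 was therefore marked in both lists, and the peaks were among the smallest of each. Over the 5 genes the median percentile was 18.5 in 2HG-treated cells and 26.6 in the knockout, close to the 17.3 and 24.4 of the 1033 coding genes with the same pattern.

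The 2 genes marked in CLPP-KO only belong to the subfamily whose ligands act on the epithelial form of FGFR2. Fgf3, an FGF of inner ear development, had a peak from 144392372 to 144393447 on chromosome 7 (area 1411, percentile 22.7, summit −log10 p 4.99), whose summit was 946 bp from the nearest Fgf3 start. Fgf22, which organizes synapses in the brain, had one from 79590893 to 79591168 on chromosome 10 (area 342.8, percentile 6.77, summit −log10 p 4.93), 116 bp from its start. Of the other 2 genes of this subfamily, Fgf10 was marked in all 3 lists and Fgf7, a growth factor of epithelial cells made by fibroblasts, in none. When each list was limited to its 12342 largest peaks, Fgf5, Fgf15, Bmp3 and Gdf10 kept their pattern and Fgf3 kept its own, while Fgf12 and Fgf22 were marked in no list. With a summit p of at most 1e-05, Fgf3, Fgf12 and Fgf22 were marked in no list.

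**Figure D2:**
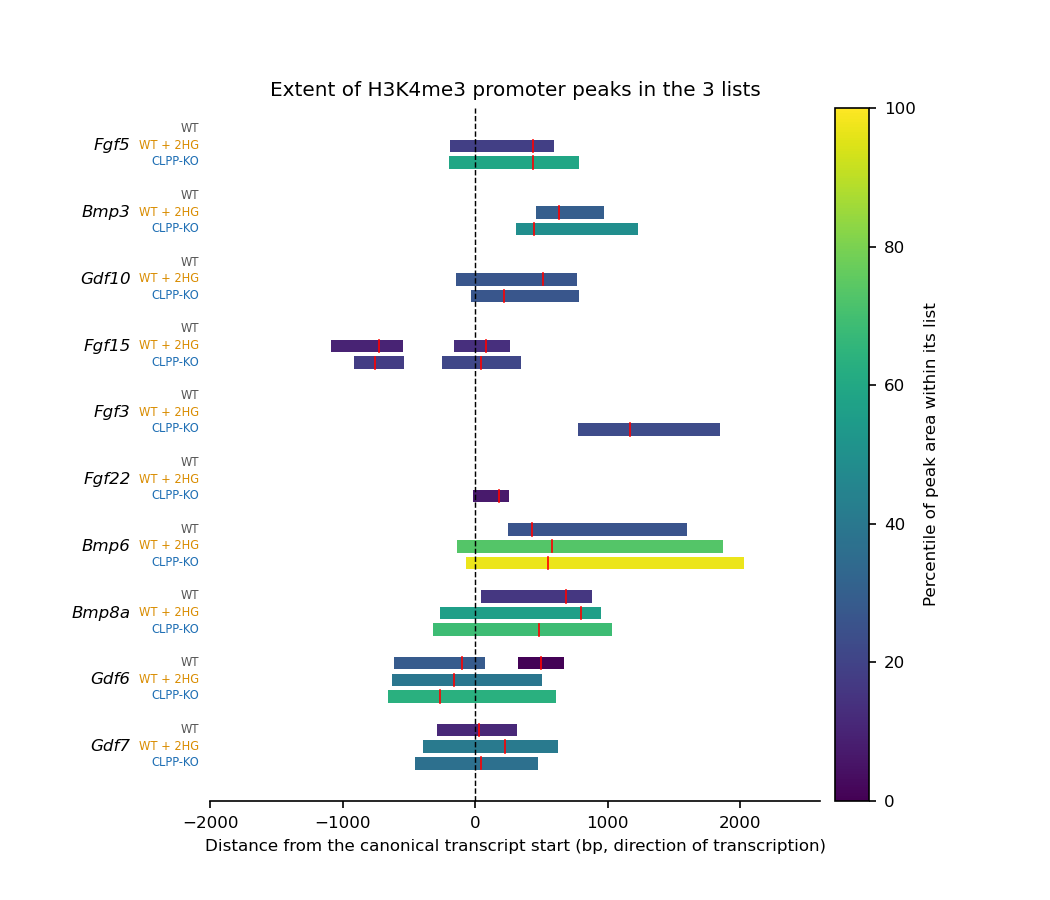
Extent of the promoter peaks of 10 ligand genes along the distance from the canonical start in bp, positive in the direction of transcription, with 1 row per list. Colour gives the percentile of the area within the list and red ticks the summits. Rows without a bar have no peak, as for Fgf5 in WT, while the Bmp6 bars go from percentile 26.1 in WT to 73.2 in 2HG-treated cells and 96.9 in the knockout.

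Ligand genes next to each other did not always share a pattern. Fgf3, Fgf4 and Fgf15 lie side by side on chromosome 7, with 2931 bp between Fgf3 and Fgf4 and 31283 bp between Fgf4 and Fgf15. Fgf4, a growth factor of the early embryo, was marked in no list, although the genes on both of its sides were marked in CLPP-KO. Gdf2, which encodes the circulating ligand BMP9, was likewise marked in no list, 2989 bp from Gdf10. Fgf6 and Fgf23 on chromosome 6, 44715 bp apart, were both unmarked.

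Among the secreted FGF genes marked in all lists, those of the FGF9 subfamily were the only subfamily of 3 or more genes marked in full, Fgf9, Fgf16 and Fgf20. Fgf20 had the highest mean percentile of the ligand genes (93.2 in WT, 91.2 in 2HG-treated cells and 92.0 in the knockout). Its peaks ran from 40760574 to 40761863, from 40760540 to 40761892 and from 40760518 to 40761892 on chromosome 8. They lay at an upstream start of Fgf20, 288 bp from a start of Micu3, a regulator of the mitochondrial calcium uniporter, and not at the canonical start, so the mark cannot be assigned to either gene. Fgf9, a mesenchymal growth factor, had its strongest peak from 58312081 to 58314415 on chromosome 14 in WT, from 58312207 to 58314259 in 2HG-treated cells and from 58312133 to 58314235 in the knockout (percentiles 76.2, 69.9 and 67.4). A further peak next to the canonical start of Fgf9, from 58309306 to 58310031 in 2HG-treated cells and from 58309342 to 58309906 in the knockout, overlapped no WT peak. Fgf16, on chromosome X, was weaker, with its strongest peaks from 104808088 to 104808919, from 104807878 to 104808685 and from 104807834 to 104808989 at percentiles 18.6, 25.7 and 36.5.

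Fgf2, basic FGF, a mitogen of precursor cells and often added to cultures, was marked from 37402494 to 37403471 on chromosome 3 in WT, from 37402459 to 37403715 in 2HG-treated cells and from 37402386 to 37403515 in the knockout, at percentiles 63.7, 79.3 and 77.4. Its relative Fgf1, known as a growth factor of adipose remodelling, was marked in no list. Fgf18, which acts on cartilage and bone, was marked from 33096726 to 33097973 on chromosome 11 in WT, from 33096709 to 33098276 in 2HG-treated cells and from 33096697 to 33098205 in the knockout, at percentiles 80.6, 83.8 and 60.9. Fgf18 was thus lower in CLPP-KO than in the other lists. Fgf8, an organizer of limb and brain patterning from the same subfamily, lay from 45730899 to 45731789 on chromosome 19 in WT, from 45730776 to 45731731 in 2HG-treated cells and from 45730729 to 45731866 in the knockout, at percentiles 22.8, 34.0 and 39.4. Fgf10 had the opposite order to Fgf8, with percentiles of 49.8, 36.0 and 24.5, and its peak was 1097 bp wide in WT, 634 bp in 2HG-treated cells and 463 bp in the knockout.

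Of the 4 intracellular FGF genes, whose products are not secreted and bind sodium channels, Fgf11 and Fgf13 were marked in all lists, Fgf12 as described above and Fgf14 in none. Fgf11 was at percentiles 33.1, 51.9 and 51.0 in WT, WT + 2HG and CLPP-KO. Its strongest peak in WT and CLPP-KO was upstream and nearer to a start of the lncRNA 6720407P12Rik, and that in WT + 2HG was at the start of Fgf11. Fgf13, on chromosome X, had the lowest WT percentile of the 20 genes marked in all lists when each is given by its strongest peak, from 58613287 to 58613533 at percentile 1.29. Its strongest peak was at another place in WT + 2HG, from 58612800 to 58613031 (percentile 9.97), and in CLPP-KO, from 58612534 to 58613172 (percentile 18.3), and both overlapped no WT peak.

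The BMP genes were marked in part. Bmp2 and Bmp4, close relatives known for bone formation and for adipocyte commitment, were marked in all lists, Bmp2 at percentiles 60.9, 75.7 and 53.9 and Bmp4 at 36.2, 52.3 and 31.3 in WT, WT + 2HG and CLPP-KO. By the strongest peak both were highest in WT + 2HG, but for Bmp4 these values come from different peaks. The WT value belongs to a peak from 46622905 to 46623646 on chromosome 14. Peaks overlapping it were at 27.8 in 2HG-treated cells and 7.60 in the knockout, so this site ranked highest in WT. Another WT peak, from 46624361 to 46625255 (percentile 30.4), overlapped the strongest peaks of the other lists. The strongest Bmp4 peaks had their summits nearer to a start of the lncRNA Gm15222 than to one of Bmp4. Those summits lay 4805, 3162 and 3095 bp downstream of the canonical Bmp4 start in WT, WT + 2HG and CLPP-KO. In WT + 2HG alone a further peak, from 46625980 to 46626417 on chromosome 14 (percentile 17.3), lay 65 bp from a Bmp4 start. With only the 5′ end of each gene taken as its start, Bmp4 was marked in no list. Bmp7 was weakly marked, from 172782050 to 172782513 on chromosome 2 in WT, from 172781642 to 172782531 in 2HG-treated cells and from 172781531 to 172782577 in the knockout, at percentiles 13.7, 26.6 and 29.4. Bmp1, a procollagen protease and not a ligand despite its name, was among the most strongly marked genes, from 70756705 to 70758192 on chromosome 14 in WT, from 70756669 to 70758221 in 2HG-treated cells and from 70756885 to 70758198 in the knockout, at percentiles 87.4, 94.8 and 91.7. The oocyte gene Bmp15, the skeletal gene Bmp5, the heart gene Bmp10, its relative Gdf2 and Bmp8b were marked in no list.

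Bmp6, the ligand through which liver endothelium senses iron, differed most between the lists of all 20 genes. Its peak ran from 38529329 to 38530681 on chromosome 13 in WT (area 1204, percentile 26.1, summit −log10 p 4.84). It ran from 38528948 to 38530954 in 2HG-treated cells (area 8958, percentile 73.2, summit −log10 p 12.7) and from 38529011 to 38531113 in the knockout (area 22047, percentile 96.9, summit −log10 p 19.7). By area the peak of Bmp6 was thus low in the WT list and near the top of the CLPP-KO list, with widths of 1353, 2007 and 2103 bp. Ranked by summit p instead, it was at percentiles 14.2 in WT, 43.1 in 2HG-treated cells and 66.2 in the knockout. Bmp8a, a relative of Bmp6 known from male germ cells, came next. Its peak ran from 123236164 to 123237005 on chromosome 4 in WT (area 630.5, percentile 15.9), from 123236098 to 123237312 in 2HG-treated cells (area 5911, percentile 56.0) and from 123236017 to 123237361 in the knockout (area 9083, percentile 68.4). The percentiles of Bmp8a by summit p were 4.45, 31.8 and 49.3 in that order. With a summit p of at most 1e-05 both genes had no WT peak and counted among those marked in CLPP-KO and WT + 2HG only.

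Bmp8b, 177293 bp from Bmp8a, is its paralogue and was marked in no list. The windows are shown to compare the pair, a choice made after the values were seen, and are in GRCm39 chr4:123236996-123237295 (minus strand) and chr4:122998673-122998972 (plus strand), with CpG in capitals.
Bmp8a: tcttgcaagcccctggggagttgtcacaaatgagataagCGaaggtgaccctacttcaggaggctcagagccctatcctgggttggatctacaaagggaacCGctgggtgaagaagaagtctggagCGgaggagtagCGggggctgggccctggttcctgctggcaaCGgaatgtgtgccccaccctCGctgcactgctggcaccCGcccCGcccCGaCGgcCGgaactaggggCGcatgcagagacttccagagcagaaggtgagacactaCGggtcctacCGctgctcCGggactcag
Bmp8b: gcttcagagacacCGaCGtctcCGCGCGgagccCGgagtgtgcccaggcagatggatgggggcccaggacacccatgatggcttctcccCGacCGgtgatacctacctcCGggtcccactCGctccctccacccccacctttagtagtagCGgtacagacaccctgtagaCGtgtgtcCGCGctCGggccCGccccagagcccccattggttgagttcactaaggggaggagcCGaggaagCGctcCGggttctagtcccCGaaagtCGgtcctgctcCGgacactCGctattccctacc
Bmp8b had 23 CpG in this window against 15 in Bmp8a, and the highest CpG ratio of the unmarked ligand genes. In an alignment of both windows 48.2% of positions were identical. Of the 3902 stretches of 100 bases within 2000 bp of the Bmp8b start, 13 (0.333%) also occurred within 2000 bp of the Bmp8a start. Mapping of reads to this pair was not tested. The nearest peak to a Bmp8b start was a CLPP-KO peak from 123009965 to 123010650 (percentile 16.6), 2467 bp from it and within 22 bp of a start of Gm17244. With windows of 3000 bp in place of 2000 bp, Bmp8b would count as marked in CLPP-KO only.

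Among the GDF genes, 5 of 9 were marked in all lists. Gdf6 and Gdf7, joint and nervous system factors, were at percentiles 28.5, 39.2 and 63.6 and at 11.1, 40.7 and 36.5 in WT, WT + 2HG and CLPP-KO, while the third gene of that subfamily, Gdf5, was unmarked. The Gdf7 peak lay from 8351704 to 8352304 on chromosome 12 in WT, from 8351396 to 8352409 in 2HG-treated cells and from 8351541 to 8352469 in the knockout. In Gdf6, WT had 2 separate peaks of 685 and 343 bp and the other lists a single one of 1131 and 1265 bp. Gdf11, a regulator of axial patterning, was at percentiles 47.6, 63.6 and 55.9. Gdf1, a left-right patterning gene, was at 38.3, 61.4 and 51.6, but its start coincides with one of Cers1, a ceramide synthase, and the mark cannot be assigned to either. Gdf9, an oocyte factor, was at 87.0, 49.6 and 67.5, with every summit nearest to Uqcrq, a subunit of respiratory complex III, whose start is 15 bp from one of Gdf9. When starts of noncoding transcripts were left out, Gdf9 was marked in no list. Gdf3, an embryonic factor, was unmarked.

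The 20 genes marked in all lists were compared with the 11021 coding genes marked in all lists. Their median percentile was 37.2 in WT, 54.1 in 2HG-treated cells and 54.9 in the knockout, against 59.8, 64.8 and 67.0 over the coding genes, so the ligand genes ranked lower in each list. In CLPP-KO 13 of the 20 had a higher percentile than in WT (69.9% of coding genes did), with a median difference of 13.6 points against 5.30. In WT + 2HG 16 had a higher percentile (64.3% of coding genes), with a median difference of 12.1 points against 3.69. The percentile depends on how many weak peaks a list holds, and the genes were therefore also ranked among those 11021 genes alone. On this scale 12 of 20 were higher in CLPP-KO (47.7% of coding genes), with a median difference of 2.06 points against −0.52, and 15 of 20 in WT + 2HG (48.5%), with 4.91 points against −0.26. Most of the median difference was thus absent on the shared scale, in CLPP-KO and to a lesser extent in WT + 2HG. A WT percentile under 50 was found for 13 of the 20, and of these 10 were higher in CLPP-KO (56.6% of such coding genes) and 11 in WT + 2HG (58.0%) on the shared scale. Within the lists, the median difference of these 13 was 17.0 points in CLPP-KO and 16.1 in WT + 2HG. Such coding genes had 14.2 and 11.4 points, nearer to the ligand genes than all coding genes were. On the shared scale it was 2.72 and 9.46 points, against 1.77 and 2.12. Between CLPP-KO and WT + 2HG, 8 were higher and 12 lower in CLPP-KO (49.5% of coding genes were higher).

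**Figure D3:**
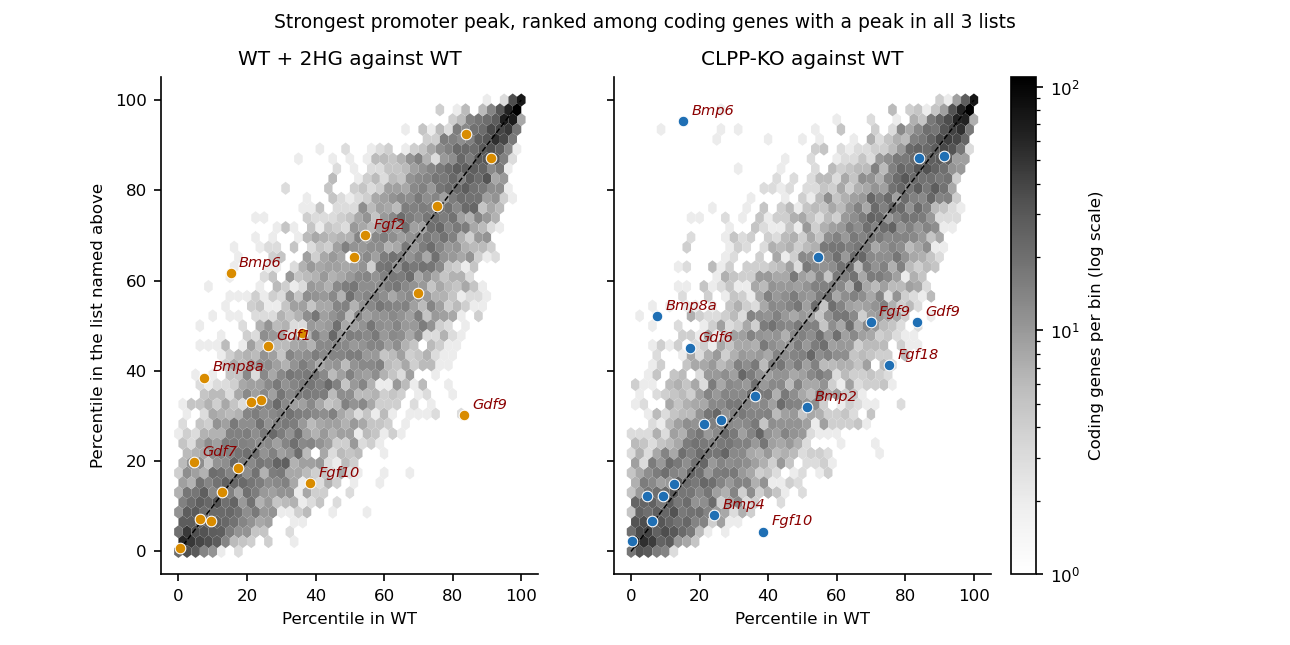
Percentile of the strongest promoter peak in WT (x axis) against WT + 2HG (left) and CLPP-KO (right), ranked among the 11021 coding genes marked in all 3 lists. Grey bins count coding genes on a log scale, coloured points are the 20 ligand genes, the dashed line marks equality, and names are given beyond 15 points of difference. Bmp6 and Bmp8a lie far above the line in both panels, and Gdf9 and Fgf10 lie below it in both.

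On the shared scale, 3 of the 20 ligand genes were at least 20 points higher in CLPP-KO than in WT (8.21% of coding genes). These were Bmp6 (15.2 in WT and 95.3 in CLPP-KO), Bmp8a (7.59 and 52.1) and Gdf6 (17.3 and 45.0). Another 3 were at least 20 points lower (7.28% of coding genes), namely Fgf10 (38.5 and 4.38), Fgf18 (75.4 and 41.3) and Gdf9. The genes far from the line thus lay on both sides of it. In WT + 2HG, Bmp6 (61.6) and Bmp8a (38.5) were at least 20 points higher than in WT (7.98% of coding genes), and Fgf10 (15.1) and Gdf9 at least 20 points lower (7.56%). Fgf18 was at 76.6 in WT + 2HG, close to its WT value. The number of promoter bases under peaks was higher in CLPP-KO than in WT for 18 of 20 genes (72.7% of coding genes) and in WT + 2HG than in WT for 18 of 20 (73.4%). The median was 976.5 bp in WT, 1253.5 bp in 2HG-treated cells and 1289.5 bp in the knockout, against 986, 1135 and 1139 bp over coding genes. As areas rest on 1 list per condition, it cannot be told whether such differences exceed the spread between samples.

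Counted by peak, the ligand genes had 26 promoter peaks in WT and 35 in each of the other lists. Of the WT + 2HG peaks, 11 (31.4%) overlapped no WT peak, against 14.8% of the promoter peaks of coding genes, and of the CLPP-KO peaks 12 (34.3%) did not, against 18.1%. Additional peaks in genes already marked in WT, as in Fgf9, Fgf11, Fgf13 and Fgf16, made up part of both numbers.

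The 14 unmarked genes were Fgf1, Fgf4, Fgf6, Fgf7, Fgf14, Fgf17, Fgf23, Bmp5, Bmp8b, Bmp10, Bmp15, Gdf2, Gdf3 and Gdf5. The distance from their starts to the nearest peak of any list had a median of 56451 bp, against 87038 bp over the 8838 unmarked coding genes. After Bmp8b, the nearest were Fgf17, a midbrain patterning factor, at 6061 bp, the bone hormone of phosphate balance Fgf23 at 7104 bp, Fgf4 at 7657 bp and Gdf5 at 10940 bp. Most of the unmarked genes were thus far from any peak.

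CpG content was compared in the 1001 bases centred on the canonical start, a property that the peak lists do not enter. The ratio of observed to expected CpG had a median of 0.726 in the 20 ligand genes marked in all lists, 0.654 in the 7 marked outside WT only and 0.380 in the 14 unmarked. Over coding genes with the same patterns the medians were 0.755, 0.581 and 0.20. The order was the same in both, and the unmarked ligand genes had more CpG than unmarked coding genes. These ratios describe the canonical start, which the peaks did not always cover. Of the 20 genes, 11 had a peak of every list over the 300 bases at that start. No peak reached the 1001 bases in Bmp4 (0.443), Fgf13 (0.818), Fgf20 (0.575), Gdf9 (0.212) and Fgf3 (0.518). In Fgf12 (0.827) only the CLPP-KO peak did. For these genes the ratio is not that of the marked sequence. A ratio of at least 0.6 was found in 15 of 20, 4 of 7 and 2 of 14 ligand genes, against 81.3, 46.0 and 6.19% of coding genes with the same patterns. The 2 unmarked ligand genes were Bmp8b (0.858) and Fgf4 (0.722). For contrast with the genes above, the promoter of the unmarked gene with the lowest ratio, Fgf23 (0.175), is printed from GRCm39 chr6:127049615-127049914 (plus strand), with CpG in capitals.
Fgf23: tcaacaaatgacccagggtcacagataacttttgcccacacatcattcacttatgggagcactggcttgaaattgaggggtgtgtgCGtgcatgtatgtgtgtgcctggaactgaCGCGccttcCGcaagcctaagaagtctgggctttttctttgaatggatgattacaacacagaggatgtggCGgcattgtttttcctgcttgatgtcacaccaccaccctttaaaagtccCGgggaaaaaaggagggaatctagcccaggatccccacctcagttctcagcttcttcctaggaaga
The window of Fgf23 held 6 CpG, and no peak of any list reached into it. A GC box, searched as GGGCGG on both strands of the 300-base windows, was found in 24 of the 41 ligand genes (58.5%) and in 42.5% of coding genes, and TATAAA in 6 (14.6%) and in 13.2%. These are matches of letters and do not show binding.

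**Figure D4:**
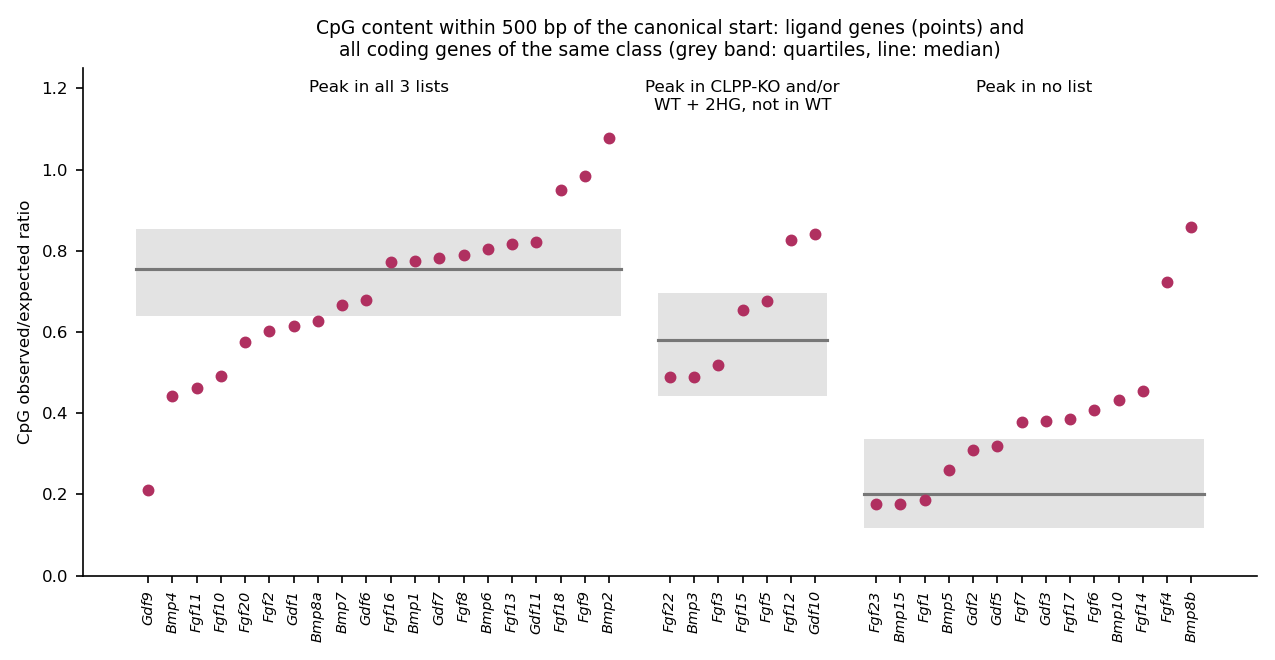
Ratio of observed to expected CpG within 500 bp of the canonical start (y axis) for each of the 41 ligand genes (points), sorted within 3 classes of peak pattern. Grey bands and lines give the quartiles and the median of coding genes in the same class. Bmp8b and Fgf4 stand above the other unmarked genes. Gdf9, whose peaks lie upstream of its canonical start, is lowest of the genes marked in all lists.

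The receptors and other genes of these pathways were marked more often than the ligands. The margin was small for the other TGF-β superfamily ligands, with 7 of 13 marked in all lists, against 20 of 41 ligand genes. Of 77 genes in 6 lists, drawn up from general knowledge, 61 had a promoter peak in WT. In 2HG-treated cells 65 had one, in the knockout 68, and 60 had one in all 3. Of all coding genes, 51.3% had a promoter peak in WT, 56.4% in 2HG-treated cells, 58.2% in the knockout and 50.6% in all 3. Of 7 FGF receptors and coreceptors, 6, among them the coreceptor Kl, were marked in all lists. Klb, a coreceptor for some endocrine FGFs, was marked in none. Of 16 genes of the intracellular FGF pathway and its feedback, 14 were marked in all lists, Flrt3, which binds FGF receptors, in WT (percentile 3.29) and CLPP-KO (9.80) but not WT + 2HG, and Etv1 in none. All 12 SMAD genes, SMAD ubiquitin ligases and Id target genes of BMP signals were marked in all lists.

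Of 13 BMP and GDF receptors and coreceptors, 10 were marked in all lists. Acvrl1, the endothelial receptor of BMP9 and BMP10, was marked in WT + 2HG (percentile 10.5) and CLPP-KO (32.9) but not WT, as was Hjv, a coreceptor of BMP6 in iron sensing (10.4 and 17.6). Eng, a coreceptor that acts with Acvrl1, was marked in CLPP-KO only (40.1). Of 16 BMP antagonists, 11 were marked in all lists, Chrdl2 in 2HG-treated cells (3.12) and CLPP-KO (13.4), Chrdl1 (21.7) in the knockout only, and Cer1, Sost and Sostdc1 in none. Of 13 other TGF-β superfamily ligands, 7 were marked in all lists, Amh (20.3 and 0.926) and Lefty1 (11.8 and 22.9) in WT + 2HG and CLPP-KO but not WT, and Inhbc, Inhbe, Lefty2 and Mstn in none.

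**Figure D5:**
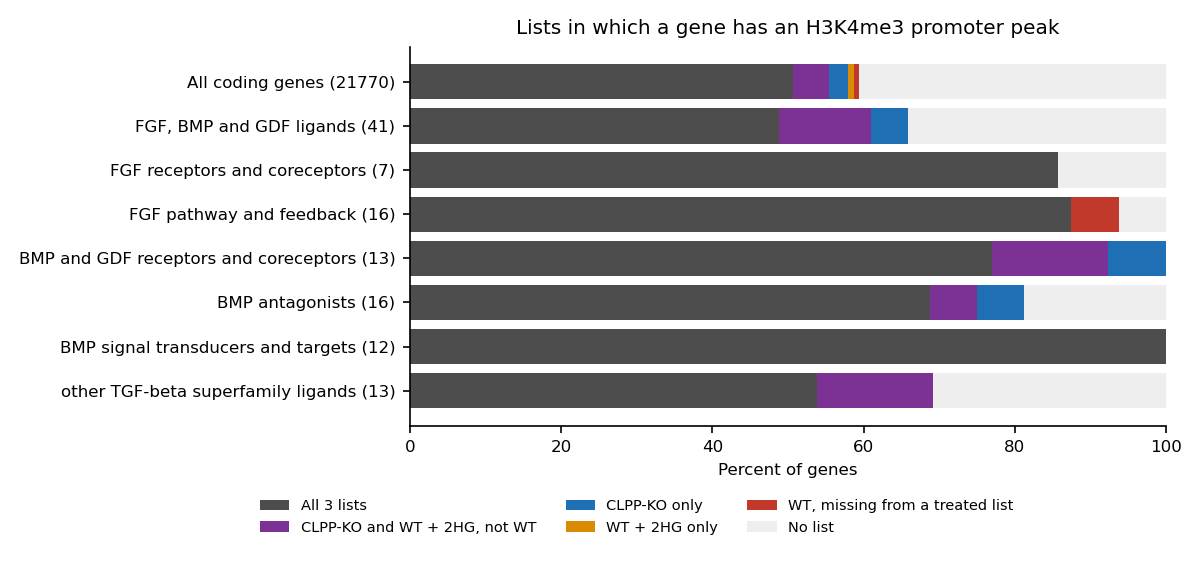
Percent of genes (x axis) by the lists in which they have a promoter peak, for all coding genes, the 41 ligand genes and 6 lists of pathway genes, with the number of genes in brackets. The purple and blue segments, genes marked in CLPP-KO without WT, make up 12.2% and 4.88% of the ligand genes and 4.75% and 2.51% of coding genes, and all 12 signal transducers and targets are dark grey.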

How the data were processed

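H3K4me3 ChIP–seq was done on 12 samples, with 3 inputs. According to the study's methods and the submitters' processing notes, reads were trimmed with fastp 0.23.4 and mapped to GRCm39 with BWA 0.7.17, and Genrich 0.6.1 called peaks on 4 replicates together against 1 input. The deposited lists give for each peak the authors' score (at most 1000), signal (an area under the pileup curve) and, at the summit, −log10 p-value. The q field is −1 throughout, every area exceeds 200, and chromosome X, with Fgf13 and Fgf16, is included. The methods instead state a q threshold, a lower area minimum and the removal of chromosome X, so the settings behind these lists are uncertain. Areas were not scaled between lists and were ranked within a list. The lists hold no reads, so the depth that the methods state could not be checked.

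Starts came from GENCODE M39, and 0 peaks lay beyond a chromosome end. A gene was marked when a peak overlapped by at least 1 bp the sequence within 2000 bp of a start. Sequences were read from GRCm39. The RefSeq promoter table (GRCm38.p6) matched 27 of 41 genes and was used only for the CpG medians named as RefSeq. Members and lists were chosen with earlier results of these data known. Spry3 is not a protein-coding gene of the annotation and was left out. The genes named were all ligand genes and every pathway gene whose pattern differed, with positions for the genes that differ and for the 5 highest and 5 lowest mean percentiles. A gene of the antagonist list and some promoter sequences are not reported here. Peak assignment was tested on simulated data. Alternatives changed the window, list size, threshold, overlap, starts and chromosomes. Python 3.11.15, numpy 2.4.6, pandas 2.3.3, Biopython 1.88 and matplotlib 3.10.9 were used.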

Additional observations from a re-analysis of the deposited data

Results flagged for a closer look

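Peaks inside the ligand genes but over 2000 bp from every annotated start lie outside the promoter windows and entered none of the counts above. There were 2 in WT, 3 in 2HG-treated cells and 4 in the knockout, each in a different ligand gene. Lists with more peaks also held more of them over coding genes, with 171 such peaks in WT (1.39% of the list), 378 in 2HG-treated cells (2.69%) and 454 in the knockout (3.00%). At least 1 was found in 0.740, 1.67 and 1.92% of coding genes and in 4.88, 7.32 and 9.76% of ligand genes, respectively. Gdf7 had one in all lists over its coding sequence on chromosome 12, from 8348362 to 8348719 in WT (percentile 3.08), then from 8348268 to 8348864 in 2HG-treated cells (27.7) and from 8348268 to 8349102 in the knockout (36.6). Fgf23, whose promoter was unmarked, had one on chromosome 6, with its summit in untranslated sequence in WT and in coding sequence in the other lists, from 127057003 to 127057581 in WT (percentile 11.5), then from 127056969 to 127057620 in 2HG-treated cells (27.0) and from 127056978 to 127057601 in the knockout (46.9). Gdf6 had one with its summit in coding sequence on chromosome 4 in 2HG-treated cells (percentile 15.5) and CLPP-KO (29.5) and none in WT, and Fgf8 had one in the knockout (10.5). The ratio of observed to expected CpG in the CLPP-KO peaks was 0.974 in Gdf7, 0.816 in Fgf23, 0.712 in Gdf6 and 0.817 in Fgf8. Whether the differences exceed the spread between samples was not tested, as each list pools 4 samples.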

How the results depend on the processing

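Of 239 values that answer a comparison under an alternative, 228 stayed within the limits set, 1.5 times for counts, and 11 moved. With lists of equal size, 1 gene was marked in CLPP-KO only and 1, Fgf13, in WT only. With a summit p of at most 1e-05, 8 genes were marked in CLPP-KO and WT + 2HG and not in WT, and 0 in CLPP-KO only, and with an area of at least 1000 the former were also 8. Assigning a peak to its nearest start alone put 1 gene in WT + 2HG alone, 1 in WT alone and 1 in WT with WT + 2HG, and leaving out peaks nearest to another coding start, an alternative chosen after seeing the data, put 1 in WT with WT + 2HG. Ranked among coding genes marked in all lists, the median percentile was 36.1 in 2HG-treated cells and 33.2 in the knockout. The pattern of 22 of the 41 genes was the same under all 11 settings. Most of these 22 were genes marked in no list, to which only the wider window could have added a peak. Of the genes marked outside WT only, Fgf5 alone kept its pattern under every setting. Of the ligand genes without a WT peak, 23.8 to 38.1% had one in another list over the settings, and of such coding genes 10.2 to 18.5%. No paired analysis was possible because peaks were called on all 4 samples at once, which also means that no sample could be left out. The lists hold no reads, so no limit set by depth was computed.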
